A study of Homo sapiens with 11 samples.

Results

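The genes described here are 10 RNA-binding proteins that regulate alternative splicing in heart and skeletal muscle: RBM20, RBM24, CELF1, CELF2, MBNL1, MBNL2, RBFOX1, RBFOX2, QKI and PTBP1. They were taken by symbol from the deposited table of read counts per gene, which holds 19990 genes, and each of the 10 had 1 row. The cells were cardiomyocytes of the established line WTC11, a line of human induced pluripotent stem cells, used at passage 63. A single differentiation was started with CHIR99021, an inhibitor of GSK3, and continued with IWP2, an inhibitor of Wnt secretion, after which parallel wells stayed in B27 medium containing insulin. There were 4 wells harvested on Day 30, 3 on Day 60 and 4 on Day 113, so the 3 groups share the line, the differentiation and the medium and differ by time in culture. Replicates were wells of that differentiation, so their spread, and every p-value that rests on it, does not include variation between differentiations or between lines. Collection and day of culture coincided and cannot be told apart.

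Most human genes with several exons give more than 1 mRNA, and the choice of exons depends on proteins that bind the pre-mRNA near splice sites. RBM20 and RBM24 act in striated muscle on transcripts of the sarcomere and of calcium handling, of which titin is the best known. MBNL and CELF proteins bind many of the same transcripts with opposite effects on exon choice, and in the developing heart MBNL activity increases while CELF activity decreases. RBFOX proteins and QKI bind short sequence motifs in introns and promote or repress the nearby exon according to which side they bind, and PTBP1 mainly represses exons that are used in differentiated muscle and neurons. The measurements here are mRNA levels of the regulators and of their target genes. Counts per gene do not show which exons were used, nor how much protein was made or where in the cell it was.

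Libraries of poly(A) RNA were sequenced as paired-end reads of 150 bases. Each library held 24.1 to 34.5 M counts in total, where M stands for 1000000, and 18796 to 19533 genes had at least 1 count in a library. The 12 cardiomyocyte markers checked were all in the table, and their summed level was 33820 to 45590 CPM (counts per 1000000) on Day 30, 43061 to 48726 on Day 60 and 36689 to 40780 on Day 113. Of these 12, 4 were higher and 2 lower on Day 113 than on Day 30 by the test described below. Of all genes, 17.3% were higher and 17.2% lower in that comparison. Markers of other cells also moved between days. The sum of 10 endothelial markers was 63.0 to 94.0 CPM on Day 30, 43.5 to 72.8 on Day 60 and 232 to 928 on Day 113, and all 10 were higher on Day 113 than on Day 30 by the test described below. The sum of 10 fibroblast and epicardial markers was 3457 to 7812, 2269 to 3714 and 5609 to 13254 CPM on the 3 days, with 6 genes higher and 2 lower on Day 113 than on Day 30. The 7 smooth muscle markers summed to 739 to 995 CPM on Day 30 and 1123 to 1666 on Day 113, with 5 higher. The 9 endoderm and liver markers summed to 446 to 1309 CPM on Day 30 and 13.3 to 41.8 on Day 113, with 8 lower, and the 9 epithelial markers to 2182 to 3175 and 1178 to 1968, with 8 lower. The epithelial list includes ESRP1, and its median log2 fold change by gene, -3.89, was a larger fall than that of its sum. Of 10 markers of cycling cells, which summed to 457 to 575, 709 to 1015 and 266 to 506 CPM on the 3 days, 7 were lower on Day 113 than on Day 30. The 10 neural markers summed to 425 to 557, 377 to 431 and 292 to 343 CPM on the 3 days, with 2 lower on Day 113 than on Day 30. By gene, 6 of these 10 had a positive log2 fold change from Day 30 to Day 113, and the median was 0.21. Of 10 skeletal muscle markers 5 had a row. These summed to 285 to 383, 526 to 799 and 445 to 573 CPM on the 3 days, with 3 higher on Day 113 than on Day 30. Among them MYOD1 and MYOG, named here after their values were seen, reached at most 1.12 CPM each in any library. No marker list had a gene at 0 throughout a day other than MYOD1, at 0 on Day 30. The part of these cells in the results below was not tested, and in RNA from a whole well fewer cells of a type and less RNA per cell cannot be told apart.

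Levels of different genes were compared as CPM per kilobase of exon, using the exon length of each gene in GENCODE v29. RBM24 stood highest on each day. Its mean level was 142 CPM per kb on Day 30 (119 to 171 over wells), 148 on Day 60 (131 to 164) and 113 on Day 113 (99.1 to 129), which was 49.3%, 51.6% and 45.8% of the sum over the 10 genes. QKI and RBM20 followed. QKI had 42.1, 38.0 and 27.7 CPM per kb on the 3 days and RBM20 had 31.1, 32.5 and 32.1. QKI lay above RBM20 on Day 30 and Day 60 and below it on Day 113, but the wells of the pair overlapped on all 3 days. CELF1, at 18.4, 16.8 and 19.6 CPM per kb, and CELF2, at 15.8, 16.5 and 18.4, were neighbours in the order on each day and overlapped on each day.

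Lower in the order, MBNL2 and MBNL1 exchanged places. On Day 30 MBNL2 had 15 CPM per kb (14.5 to 15.7) and MBNL1 8.69 (7.91 to 10.0), without overlap between wells. On Day 60 the values were 11.8 and 10.8 and overlapped. On Day 113 MBNL1 had 13.9 CPM per kb (12.0 to 14.7) and MBNL2 10.0 (8.26 to 11.9), again without overlap. PTBP1 stood close to them at 10.6, 8.70 and 9.71 CPM per kb, RBFOX2 was ninth at 4.75, 4.00 and 2.86, and RBFOX1 was last at 0.0704, 0.0740 and 0.0757. The levels per kb rest on annotated exon lengths and not on the transcripts these cells made.

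**Figure D1:**
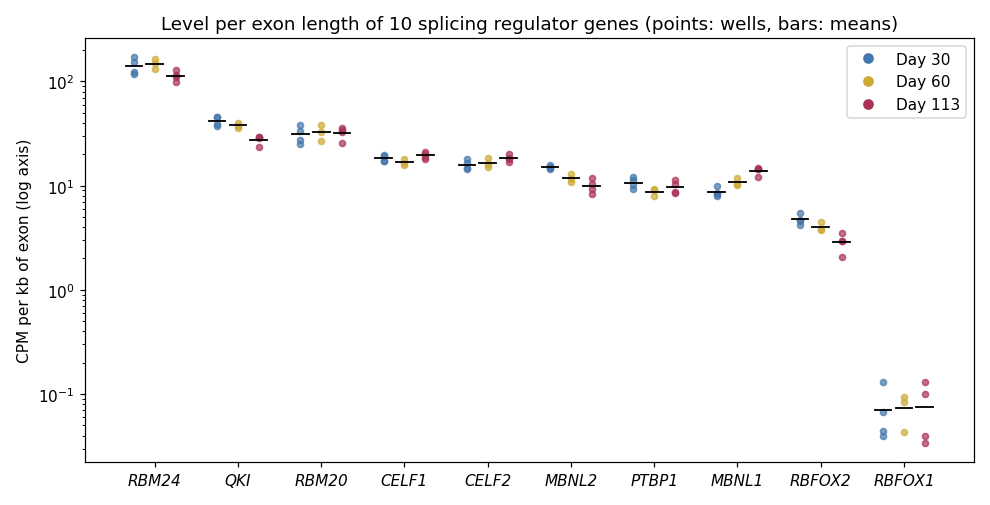
Level of each of the 10 regulators in CPM per kilobase of exon on a log axis, by day, with 1 point per well and a bar at the mean. RBM24 is highest on each day, RBFOX1 lies far below the rest, and MBNL1 passes MBNL2 between Day 30 and Day 113.

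The promoters of RBM24 and RBM20 are shown because these are the muscle-restricted regulators at the top of the order, and RefSeq gives each a single start. Both sequences are the 250 bases before that start on the + strand of GRCh38.p14, at chr6:17281814-17282063 for RBM24 and chr10:110644086-110644335 for RBM20, with capitals marking a GGGCGG box on either strand. GENCODE v29 also annotates an RBM24 transcript that starts upstream of the window, at 17281346, so the RBM24 window lies within the GENCODE gene and outside its exons.
RBM24: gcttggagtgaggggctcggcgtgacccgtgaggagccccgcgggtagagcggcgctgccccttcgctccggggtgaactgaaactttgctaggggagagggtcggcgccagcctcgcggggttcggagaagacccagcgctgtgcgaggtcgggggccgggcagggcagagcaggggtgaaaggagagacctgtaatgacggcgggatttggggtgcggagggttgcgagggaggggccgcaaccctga
RBM20: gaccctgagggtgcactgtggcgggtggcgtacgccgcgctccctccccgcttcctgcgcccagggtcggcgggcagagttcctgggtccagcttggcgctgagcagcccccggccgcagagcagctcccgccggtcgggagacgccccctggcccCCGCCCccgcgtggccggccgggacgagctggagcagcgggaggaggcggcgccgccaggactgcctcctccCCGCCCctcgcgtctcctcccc
The RBM24 window has a GC content of 69.2% with 23 CpG dinucleotides, and the RBM20 window 78.4% with 29, against medians of 58.0% and 11 over 35116 windows of the same length in RefSeq. RefSeq windows were matched for 8 of the 10 genes, 29 windows in all. On either strand GGGCGG was in 13 of the 29 (44.8%) and in 42.6% of all windows, CCAAT was in 8 (27.6%) and in 32% of all, and TATAAA was in 1 (3.4%) and in 10.7% of all. Windows of 1 gene can overlap, and a match of letters is a description and not a binding site.

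Changes between days were tested with the quasi-likelihood test of edgeR on the counts of all 11 libraries, with Benjamini-Hochberg adjustment over 19990 genes and a threshold of 0.05. From Day 30 to Day 113, 4 of the 10 regulators changed (40%) while 34.5% of all genes did. MBNL1 was the 1 that rose (10%; 17.3% of all genes rose), and MBNL2, RBFOX2 and QKI fell (30%; 17.2% of all genes). The median log2 fold change of the 10 was -0.05, against -0.02 over all genes. Over the later interval, Day 60 to Day 113, 4 of 10 changed, beside 24.0% of all genes: MBNL1 rose (12.9% of all genes rose), and RBM24, RBFOX2 and QKI fell (11.1% of all genes). Between Day 30 and Day 60 edgeR called 0 of 10, beside 10.3% of all genes, with 3 at an unadjusted p under 0.05, and DESeq2 called 1. By the wells alone, 3 of 10 did not overlap between Day 30 and Day 60, beside 24.8% of all genes, 5 of 10 between Day 60 and Day 113 (30.6%) and 4 of 10 between Day 30 and Day 113 (35.1%). With 10 genes these shares are close to those of all genes, and nothing about the group is read from them. The change over the later 53 days was also compared with that over the first 30 days in the same edgeR fit, where 9.34% of all genes differed and 0 of 10 regulators did. There 0 had an unadjusted p under 0.05, the smallest adjusted p was 0.223, and DESeq2 also called 0.

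**Figure D2:**
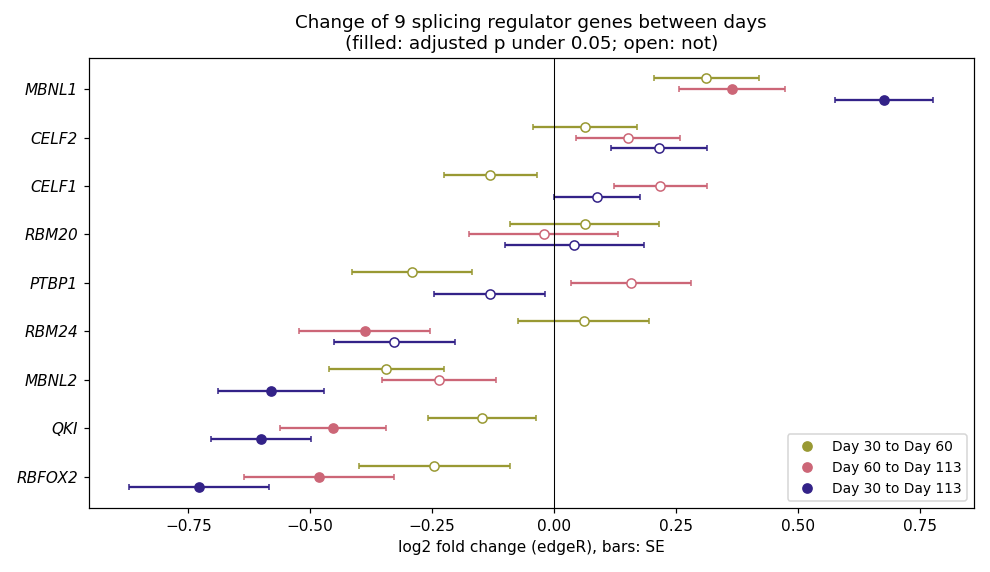
Log2 fold change of the regulators other than RBFOX1 in each comparison of days, with bars for the SE and filled points where edgeR's adjusted p is under 0.05. MBNL1 lies to the right and MBNL2, RBFOX2 and QKI to the left from Day 30 to Day 113.

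RBM20, the muscle regulator of titin exon use, showed no change that passed the test. Its gene lies on chromosome 10 at 110644397 to 110839469 on the + strand of GRCh38. The level was 310.1, 225, 207 and 275 CPM in the Day 30 wells, 266, 312 and 218 on Day 60, and 289, 210.4, 278 and 269 on Day 113. The ranges of the 3 days lie across each other. Its log2 fold change from Day 30 to Day 113 was 0.04 ± 0.14 (SE, adjusted p = 0.85), with a 95% interval of -0.29 to 0.37. Over the 2 shorter intervals it was 0.06 (-0.29 to 0.42) and -0.02 (-0.37 to 0.33). The sign of these values turned when single wells were left out.

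RBM24, which promotes the inclusion of muscle exons and stabilises muscle mRNAs, was lower on Day 113 than on Day 60. The gene is on chromosome 6 at 17281346 to 17293875 on the + strand. Its level was 535, 426, 409 and 589 CPM on Day 30, 563, 518 and 452 on Day 60, and 341, 397, 380.4 and 443 on Day 113. Each Day 113 well was below each Day 60 well, but the highest Day 113 well was above the 2 lower Day 30 wells. RBM24 fell by 0.39 ± 0.13 on the log2 scale from Day 60 to Day 113 (adjusted p = 0.046). That call rests on single wells: without Day 30 replicate 1, Day 60 replicate 1, Day 60 replicate 2, Day 113 replicate 1, Day 113 replicate 2 or Day 113 replicate 3, each in turn, the adjusted p was 0.056, 0.18, 0.11, 0.098, 0.054 and 0.091. From Day 30 to Day 113 the log2 fold change was -0.33 ± 0.12 (adjusted p = 0.053). This comparison lay close to the threshold: the adjusted p was 0.027 with DESeq2, 0.049 with limma-voom and 0.043, 0.026 and 0.036 without Day 30 replicate 2, Day 30 replicate 3 or Day 113 replicate 4.

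**Figure D3:**
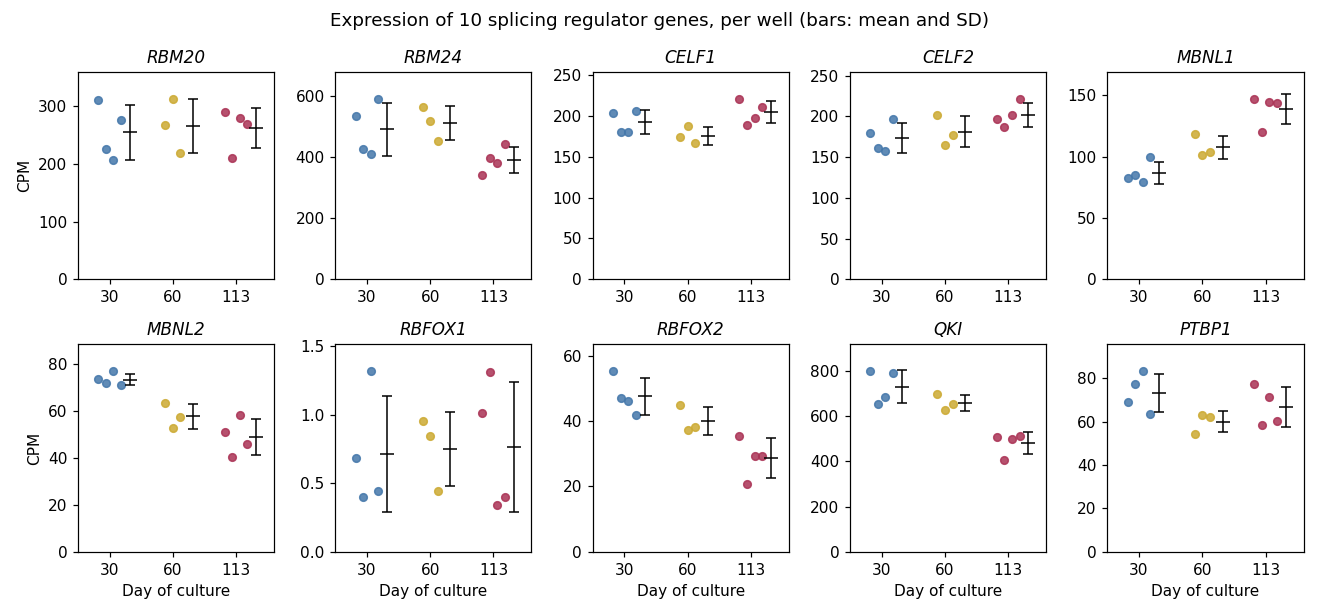
CPM of each regulator in each well by day, 1 panel per gene with its own axis from 0, with a bar at the mean of each day. MBNL1 climbs from 86.8 to 139 CPM while MBNL2, RBFOX2 and QKI descend, and RBM20 shows no separation of the days.

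MBNL1 and MBNL2, the muscleblind proteins, moved in opposite directions. MBNL1, on chromosome 3 at 152243828 to 152465780 on the + strand, is the main muscleblind protein of adult muscle and is sequestered by expanded CUG repeats in myotonic dystrophy. It was at 82.8, 85.4, 79.0 and 100 CPM on Day 30, 118, 101 and 104 on Day 60, and 147, 120.3, 144 and 144 on Day 113. Each Day 60 well was above each Day 30 well, and each Day 113 well above each Day 60 well. MBNL1 rose 1.60-fold from Day 30 to Day 113, by 0.68 ± 0.10 on the log2 scale (adjusted p = 8.7e-05), and passed the threshold under all 20 alternative settings. It also rose from Day 60 to Day 113 (0.37 ± 0.11, adjusted p = 0.023), a call that was lost without Day 60 replicate 2 (0.089), Day 60 replicate 3 (0.094) or Day 113 replicate 3 (0.053). Its log2 fold change between Day 30 and Day 60 was 0.31 ± 0.11 (adjusted p = 0.081). That value passed the threshold in 6 of 20 alternatives, with adjusted p from 0.033 to 0.049, among them those that left out Day 30 replicate 4 (0.038) or Day 113 replicate 2 (0.036).

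The antisense gene MBNL1-AS1 overlaps exons of MBNL1, which hold 9989 bases. Added over MBNL1-AS1 and AC026347.1 the overlap was 1555 bases, with a base under both counted for each. MBNL1-AS1 rose as well, from 3.81 ± 0.861 CPM (SD, n = 4) on Day 30 to 9.94 ± 1.51 (n = 4) on Day 113. Its log2 fold change was 1.38 ± 0.24 (edgeR adjusted p = 3.8e-04). Whether the counting used strand is not given in the sources used here, so reads of the pair cannot be told apart.

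MBNL2, on chromosome 13 at 97221434 to 97394120 on the + strand, is the muscleblind paralogue with a larger role in brain. It was at 73.5, 72.1, 76.9 and 71.3 CPM on Day 30, 63.3, 52.8 and 57.5 on Day 60, and 51.2, 40.5, 58.5 and 46.1 on Day 113. All wells of Day 60 and Day 113 lay below all wells of Day 30, while Day 60 and Day 113 overlapped. MBNL2 fell 1.5-fold from Day 30 to Day 113, a log2 fold change of -0.58 ± 0.11 (adjusted p = 6.5e-04), and passed under all 20 alternatives. The value for Day 30 to Day 60 was -0.34 ± 0.12 (adjusted p = 0.078), which passed in 3 of 20 alternatives with adjusted p from 0.022 to 0.038, among them the 1 without Day 113 replicate 2 (0.028), and from Day 60 to Day 113 it was -0.24 ± 0.12 (0.16).

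MBNL3, the third muscleblind gene, had a minimum on Day 60. Its level was 8.75 ± 2.16 CPM on Day 30, 3.39 ± 0.739 on Day 60 and 6.42 ± 1.96 on Day 113. It fell by 1.36 ± 0.29 on the log2 scale from Day 30 to Day 60 (adjusted p = 0.0068) and rose by 0.91 ± 0.29 from Day 60 to Day 113 (adjusted p = 0.030). The rise was not called without Day 60 replicate 2 (0.10), Day 60 replicate 3 (0.11), Day 113 replicate 1 (0.065) or Day 113 replicate 4 (0.080), nor with limma-voom (0.076).

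CELF1 and CELF2, which oppose muscleblind proteins on shared exons, did not pass the test in any comparison. CELF1, on chromosome 11 at 47465933 to 47565569 on the - strand, was at 203, 179.9, 179.9 and 206 CPM on Day 30, 173, 187 and 166 on Day 60, and 221, 189, 197 and 210.3 on Day 113. The Day 113 wells lay above the Day 60 wells and across the Day 30 wells. Its log2 fold change was -0.13 ± 0.10 from Day 30 to Day 60 (adjusted p = 0.47), 0.22 ± 0.10 from Day 60 to Day 113 (0.11) and 0.09 ± 0.09 from Day 30 to Day 113 (0.48; 95% interval -0.11 to 0.29). Exons of NDUFS3 and PTPMT1 share 374 bases with CELF1, and neither of those genes was called. CELF2, on chromosome 10 at 10798397 to 11336675 on the + strand, was at 179, 161, 157 and 196 CPM on Day 30, 202, 165 and 177 on Day 60, and 197, 187, 201 and 221 on Day 113. The lowest Day 113 well was below the highest wells of both earlier days. Its change from Day 30 to Day 113 was 0.22 ± 0.10 (adjusted p = 0.10; 95% interval -0.01 to 0.44).

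The CELF3 to CELF6 genes, expressed mainly in nervous tissue, were all at or under 6.18 CPM in every well. CELF6 rose from 0.883 ± 0.624 CPM on Day 30 to 4.94 ± 1.02 on Day 113, a log2 fold change of 2.48 ± 0.42 (edgeR adjusted p = 2.6e-04). Its exons, which hold 3588 bases, overlap those of AC009690.1 and AC009690.3. Added over both genes the overlap was 4730 bases, with a base under both counted for each, so the counts of CELF6 may include reads of those genes. CELF5 fell from 4.6 ± 0.894 to 2.34 ± 0.576 CPM, by 0.97 ± 0.26 on the log2 scale (edgeR adjusted p = 0.0081). CELF3 (1.49, adjusted p = 0.13) and CELF4 (-0.58, adjusted p = 0.28) did not pass over the same interval.

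RBFOX2, the RBFOX gene with the higher level in these cells, fell. It lies on chromosome 22 at 35738736 to 36028425 on the - strand and is needed for splicing of contractile and adhesion genes in the heart. The level was 55.2, 47.2, 46.1 and 41.7 CPM on Day 30, 44.9, 37.3 and 38.0 on Day 60, and 35.5, 20.7, 29.3 and 29.2 on Day 113. All Day 113 wells were below all wells of both earlier days, and the lowest of them was replicate 2. RBFOX2 fell 1.66-fold from Day 30 to Day 113, a log2 fold change of -0.73 ± 0.14 (adjusted p = 0.000998), under all 20 alternatives. From Day 60 to Day 113 it fell by 0.48 ± 0.15 (adjusted p = 0.032), a call lost without Day 60 replicate 1 (0.14), Day 60 replicate 3 (0.055), Day 113 replicate 2 (0.054), Day 113 replicate 3 (0.056) or Day 113 replicate 4 (0.051).

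RBFOX1, the paralogue known from adult heart, skeletal muscle and neurons, had the fewest counts. The gene spans 2473.5 kb of chromosome 16, from 5239802 to 7713338 on the + strand. It had 10 to 40 counts per library, or 0.342 to 1.32 CPM. Its log2 fold change from Day 30 to Day 113 was 0.10 ± 0.65 (adjusted p = 0.92), with a 95% interval of -1.40 to 1.61, which takes in 2-fold differences in both directions. Its biological coefficient of variation in the edgeR fit, the spread between wells beyond counting error, was 0.578, against 0.0968 to 0.149 for the other 9 regulators. RBFOX3, a neuronal marker protein, was at 0.208 ± 0.30 CPM on Day 30, 0.860 ± 0.782 on Day 60 and 0.30 ± 0.218 on Day 113, and did not pass in any comparison.

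QKI, the quaking protein, which in the heart acts on splicing of contractile genes and on the formation of circular RNAs, fell late in culture. It lies on chromosome 6 at 163414000 to 163578596 on the + strand. Its level was 798, 652, 684 and 789 CPM on Day 30, 696, 628 and 654 on Day 60, and 507, 407, 499 and 514 on Day 113. The Day 30 and Day 60 wells overlapped, and all Day 113 wells lay below them. QKI fell by 0.60 ± 0.10 on the log2 scale from Day 30 to Day 113 (1.52-fold, adjusted p = 2.8e-04) and by 0.45 ± 0.11 from Day 60 to Day 113 (1.37-fold, adjusted p = 0.0069), and both calls held under every alternative tried. The value for Day 30 to Day 60 was -0.15 ± 0.11 (adjusted p = 0.49).

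PTBP1, on chromosome 19 at 797075 to 812327 on the + strand, is the polypyrimidine tract binding protein that falls as many cell types differentiate. Its level was 69.1, 77.4, 83.2 and 63.4 CPM on Day 30, 54.4, 63.3 and 62.1 on Day 60, and 77.3, 58.4, 71.4 and 60.2 on Day 113. The Day 60 wells were just below the Day 30 wells, and the Day 113 wells overlapped both. Its log2 fold change was -0.29 ± 0.12 from Day 30 to Day 60 (adjusted p = 0.16) and -0.13 ± 0.11 from Day 30 to Day 113 (adjusted p = 0.41; 95% interval -0.39 to 0.13). PTBP2, the paralogue used by neurons, was at 55.4 ± 4.04, 61.5 ± 6.34 and 57.1 ± 5.23 CPM on the 3 days and did not pass the test. PTBP3 fell from 59.6 ± 9.11 CPM on Day 30 to 40.5 ± 10.3 on Day 113, by 0.56 ± 0.16 on the log2 scale (edgeR adjusted p = 0.011; 0.051 without Day 30 replicate 2).

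Of the 10 paralogues and partners in the list, 2 rose and 2 fell from Day 30 to Day 113 (40% called, beside 34.5% of all genes). Their median log2 fold change was -0.11, and without Day 30 replicate 2, 2 were called. Day 30 to Day 60 gave 1 rise and 3 falls (40% called, beside 10.3% of all genes). Day 60 to Day 113 gave 1 rise and 2 falls (30% called, beside 24.0% of all genes). The latter became 1 call in all without Day 60 replicate 2 or Day 113 replicate 4. Over the whole period the 4 were CELF6, CELF5, PTBP3 and MATR3, a nuclear matrix protein that works with PTBP1. MATR3 was at 477 ± 25.5 CPM on Day 30 and 568 ± 32.3 on Day 113, a log2 fold change of 0.25 ± 0.09 (edgeR adjusted p = 0.045). MATR3 was not called in 9 of 20 alternatives, and its exons share 731 bases with SIL1 and SNHG4 together. RBM38, the close relative of RBM24, was at 216 ± 21.6, 154 ± 10.1 and 179 ± 35.4 CPM on the 3 days, and fell by 0.49 ± 0.13 on the log2 scale from Day 30 to Day 60 (adjusted p = 0.029). That call was lost without Day 30 replicate 1 (0.087), Day 30 replicate 4 (0.070), Day 60 replicate 1 (0.068), Day 60 replicate 2 (0.072) or Day 60 replicate 3 (0.14). The RBM38 value from Day 30 to Day 113 was -0.27 ± 0.12 (adjusted p = 0.10; 0.0049 without Day 113 replicate 2).

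Ratios of 2 genes within a library do not depend on the scaling between libraries. The log2 ratio of MBNL1 to MBNL2 counts was 0.24 ± 0.19 on Day 30 (SD, n = 4), 0.90 ± 0.04 on Day 60 (n = 3) and 1.51 ± 0.14 on Day 113 (n = 4). In the single wells it was 0.17, 0.24, 0.04 and 0.49, then 0.90, 0.94 and 0.85, then 1.52, 1.57, 1.30 and 1.64, with no overlap between any pair of days. The log2 ratio of MBNL1 to CELF1 was -1.15 ± 0.12, -0.71 ± 0.17 and -0.56 ± 0.08. It differed without overlap between Day 30 and both later days, by 0.44 and 0.59, and overlapped between Day 60 and Day 113. For the 5 differences without overlap the two-sided exact permutation p was 0.0286, the smallest that groups of this size allow. With 15 ratio comparisons the adjusted value was 0.0857, the smallest reached, so 0 of 15 passed and 5 had an unadjusted p under 0.05. The ratio is of counts and not per length, so its change between days can be read but not its sign.

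**Figure D4:**
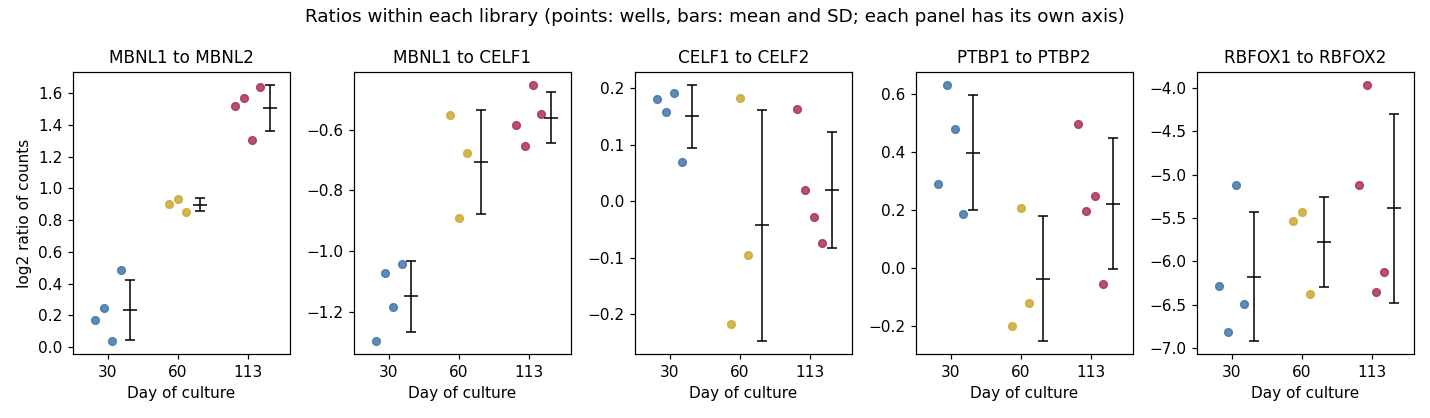
Log2 ratio of the counts of 2 regulators within each library, by day, with 1 point per well and a bar at the mean. The MBNL1 to MBNL2 ratio climbs from 0.24 to 0.90 and 1.51 with no overlap between days, and the CELF1 to CELF2 ratio stays near 0.

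The log2 ratio of CELF1 to CELF2 was 0.15 ± 0.06, -0.04 ± 0.21 and 0.02 ± 0.10 on the 3 days, and that of PTBP1 to PTBP2 was 0.40 ± 0.20, -0.04 ± 0.22 and 0.22 ± 0.23. The ratio of RBFOX1 to RBFOX2 was -6.18 ± 0.74, -5.78 ± 0.52 and -5.39 ± 1.09. For these 3 ratios the two-sided exact permutation p was 0.0857 or more in each comparison of days.

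Most genes of the SR proteins, the general activators of exon inclusion, rose late in culture. Over the whole period 9 of 12 rose (75%, against 17.3% of all genes), with a median log2 fold change of 0.45. Between Day 60 and Day 113, 9 rose and 1 fell, beside 12.9% and 11.1% of all genes. SRSF3 was at 87.4 ± 6.90 CPM on Day 30, 82.5 ± 5.72 on Day 60 and 209.6 ± 28.5 on Day 113, and rose by 1.26 ± 0.11 on the log2 scale from Day 30 to Day 113 (edgeR adjusted p = 3.1e-07). SRSF2 went from 67.9 ± 6.62 to 131 ± 9.76 CPM (0.95 ± 0.09, 1.9e-06), TRA2B from 56.1 ± 2.18 to 105 ± 6.12 (0.90 ± 0.09, 1.5e-06) and SRSF5 from 207 ± 11.9 to 339.5 ± 36.1 (0.72 ± 0.09, 2.0e-05). SRSF2 shares 1205 exon bases with MFSD11 and MIR636 together, so its counts may include reads of those genes.

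Kinases and the importin that act on SR proteins and on RBM20 were mixed. Of 7 tested, 1 rose and 2 fell from Day 30 to Day 113 (42.9% called, beside 34.5% of all genes). CLK3, a nuclear kinase of SR proteins, fell from 65.7 ± 3.69 to 48.0 ± 5.40 CPM (log2 fold change -0.45 ± 0.09, edgeR adjusted p = 0.0016), and TNPO3, which carries SR proteins and RBM20 into the nucleus, fell from 62.8 ± 2.5 to 47.9 ± 5.07 (-0.39 ± 0.09, 0.0042). SRPK3, a kinase of striated muscle named here after its values were seen, rose from 1.58 ± 0.271 to 4.31 ± 1.38 CPM (1.45 ± 0.31, 0.0019). SRPK3 shares 1432 of 4744 exon bases with PLXNB3. CLK3, with 20443 exon bases, shares 1360 with EDC3, AC100835.1 and AC100835.2 together. The counts of SRPK3 and CLK3 may include reads of the overlapping genes.

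Among 18 hnRNP genes, which package pre-mRNA and often repress exons, 4 rose and 3 fell from Day 30 to Day 113. These calls were 38.9% of the list, beside 34.5% of all genes. HNRNPM rose from 76.0 ± 7.39 to 193 ± 22.7 CPM (log2 fold change 1.35 ± 0.12, edgeR adjusted p = 5.5e-07) and HNRNPA2B1, with 368 exon bases shared with CBX3, from 505 ± 20.2 to 659 ± 86.2 (0.38 ± 0.10, 0.0054). PCBP2 fell from 551 ± 26.9 to 314 ± 22.3 CPM (-0.81 ± 0.09, edgeR adjusted p = 3.2e-06), and HNRNPC fell from 531 ± 28.5 to 359 ± 27.3 (-0.56 ± 0.09, 1.3e-04). PCBP2 shares 2777 exon bases with MAP3K12, AC023509.1, PCBP2-OT1 and RF02271 together. Of 24 core spliceosome genes 6 rose and 2 fell (33.3% called, beside 34.5% of all genes). The 24 include PRPF8 (means of 0.298, 0.310 and 0.107 CPM on the 3 days) and U2AF1 (0.813, 0.426 and 0.318), which had few counts. The Sm proteins SNRPD3 (0.65 ± 0.10) and SNRPD1 (0.57 ± 0.14) rose, while SNRPA of the U1 particle (-0.83 ± 0.13) and SF3A2 of the U2 particle (-0.79 ± 0.11) fell. SNRPD3, SF3A2 and SNRPA share 627, 398 and 89 exon bases with other genes of the table. ESRP2, described next, shares 258 with NFATC3, AC020978.5 and MIR6773 together.

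**Figure D5:**
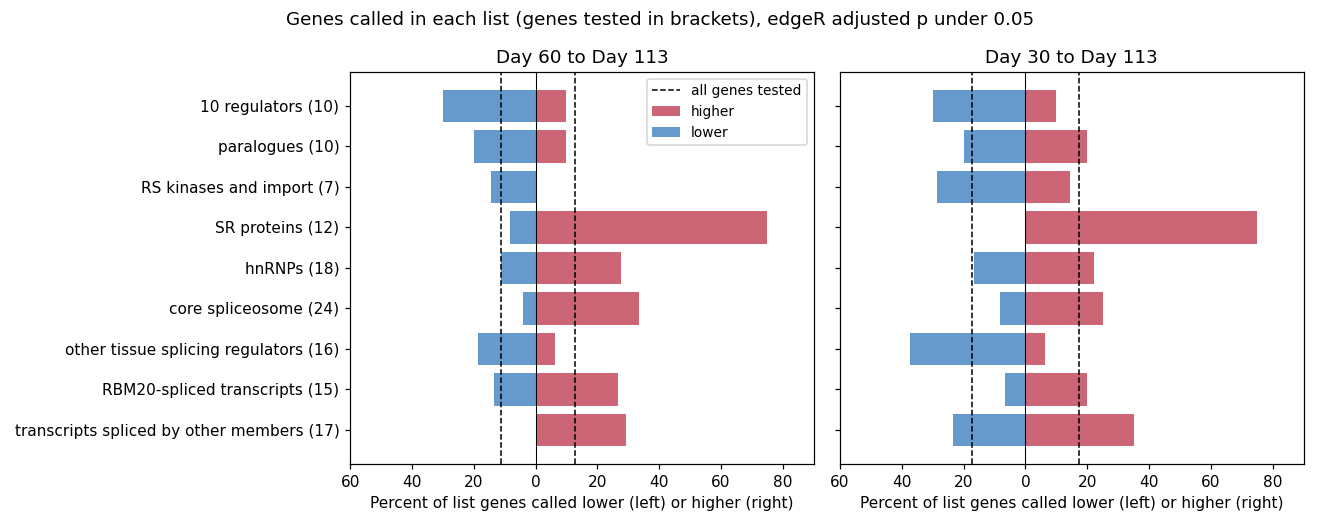
Percent of the genes of each list that edgeR called higher (right) or lower (left) from Day 60 to Day 113 and from Day 30 to Day 113, with dashed lines at the percent of all genes. The SR proteins reach 75% higher in both panels.

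The list of other tissue regulators had 16 genes tested, among them epithelial, neuronal and smooth muscle regulators but also RBM4, RBM5, RBM10 and KHDRBS1. Of the 16, 1 rose and 6 fell from Day 30 to Day 113 (43.8% called, beside 34.5% of all genes). ESRP2 and ESRP1, epithelial splicing regulators, fell from 9.63 ± 2.85 to 0.972 ± 0.088 CPM (log2 fold change -3.30 ± 0.35, edgeR adjusted p = 3.5e-06) and from 17.1 ± 5.72 to 3.8 ± 0.296 (-2.17 ± 0.24, 5.2e-06). RBM47, an endoderm regulator, fell from 8.07 ± 4.03 to 1.96 ± 1.58 CPM (-2.05 ± 0.62, 0.018), a call lost without Day 30 replicate 2 (0.062) or Day 30 replicate 3 (0.051). Beside these falls, the sum of the epithelial markers, a list that includes ESRP1 itself, went from 2182 to 3175 CPM on Day 30 to 1178 to 1968 on Day 113. That of the endoderm and liver markers went from 446 to 1309 CPM to 13.3 to 41.8. By gene, the median log2 fold change was -3.89 for the epithelial markers and -5.29 for the endoderm and liver markers. The part of these markers in the result was not tested. NOVA2, known from neurons and endothelium, rose from 2.00 ± 0.670 to 6.22 ± 2.68 CPM (1.64 ± 0.43, 0.0073). Beside it, the sum of the endothelial markers went from 63.0 to 94.0 CPM to 232 to 928, and that of the neural markers from 425 to 557 CPM to 292 to 343. Of the 10 neural markers, however, 6 had a positive log2 fold change, with a median of 0.21 over the list, and 2 were called lower. The part of either set of markers in the result was not tested.

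Transcripts whose exons RBM20 regulates were tested for their total level only. Of 15, 3 rose and 1 fell from Day 30 to Day 113 (26.7% called, beside 34.5% of all genes). Their median log2 fold change was 0.04. PDLIM3, a Z-disc protein, rose from 159.9 ± 7.90 to 254 ± 55.9 CPM (0.67 ± 0.14, edgeR adjusted p = 0.0013), and MLIP, a lamin-interacting muscle protein, from 184 ± 16.1 to 228 ± 5.76 (0.31 ± 0.09, 0.011). LMO7 rose (0.32 ± 0.10, 0.017), which was lost without Day 30 replicate 3 (0.057) or Day 113 replicate 1 (0.053). TTN, the titin gene, was not called (0.02 ± 0.22, 0.96).

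Of 17 transcripts spliced by the other regulators, 6 rose and 4 fell from Day 30 to Day 113 (58.8% called, beside 34.5% of all genes). Their median log2 fold change was 0.22. TPM2, a tropomyosin, rose from 259.8 ± 37.6 to 440.3 ± 105 CPM (0.76 ± 0.15, edgeR adjusted p = 0.0010). FN1, the fibronectin gene, was at 6992 ± 3153 CPM on Day 30, 625 ± 111 on Day 60 and 1672 ± 1041 on Day 113. It fell by 3.48 ± 0.45 on the log2 scale from Day 30 to Day 60 (edgeR adjusted p = 1.5e-04) and lay below its Day 30 level on Day 113 (-2.06 ± 0.37, 5.0e-04). Its rise from Day 60 to Day 113 (1.42 ± 0.41, 0.018) was lost without Day 60 replicate 2 (0.062) or Day 60 replicate 3 (0.080) and with robust dispersions (0.094). Beside it, the fibroblast and epicardial markers summed to 3457 to 7812, 2269 to 3714 and 5609 to 13254 CPM on the 3 days. COL1A1, COL1A2 and COL3A1 made up most of that sum, and their means were lowest on Day 60 and highest on Day 113. The means of DCN, POSTN, TCF21, WT1 and TBX18 rose from day to day. PDGFRA fell from day to day (144, 96.5 and 32.3 CPM), and LUM was highest on Day 30. The sums of the endoderm and liver markers (446 to 1309, 50.4 to 56.8 and 13.3 to 41.8 CPM) and of the epithelial markers (2182 to 3175, 1295 to 1480 and 1178 to 1968 CPM) were highest on Day 30. The part of all these markers was not tested.

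One well of Day 113, replicate 2, had the lowest level of 8 of the 10 regulators among the wells of its day and the highest of 1. On Day 60, replicate 1 was highest for 7 of 10. Without Day 113 replicate 2, MBNL1 (log2 fold change 0.74), MBNL2, RBFOX2 and QKI were still called from Day 30 to Day 113.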

How the data were processed

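RNA from 11 wells (Day 30, 4; Day 60, 3; Day 113, 4) was measured by poly(A) RNA sequencing. The authors deposited whole-number read counts per gene symbol with no normalization. STAR 2.5.3a, featureCounts 2.0.3 and build hg38 are named in the submitters' processing notes, while the annotation, strand setting and filters are not given in the sources used here. A deposited TPM table was checked and not used: the gene length implied by count over TPM varied 46.8- to 461-fold between libraries for the 10 regulators.

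Counts were tested with edgeR 4.0.16 in R 4.3.3 (TMM factors 0.966 to 1.04, filterByExpr with a minimum count of 10, which kept all 19990 genes, day as the factor, quasi-likelihood F-test, Benjamini-Hochberg adjustment). SEs are the log2 fold change over the square root of F. CPM use TMM library sizes, and CPM per kb the GENCODE v29 exon union. Shared exon bases were added over the overlapping genes, so a base under several of them counts for each. Intervals are at 95%, unadjusted, with 8 residual degrees of freedom. Ratios took counts plus 0.5 and two-sided exact permutation tests. Alternatives used limma 3.58.1 (voom), DESeq2 1.42.0, other scaling, filters and left-out wells. Chi-square per degree of freedom between wells of a day was 11.7 to 88.7, so no library was a copy. The model was tested on simulated data.

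The regulators and gene lists were chosen with earlier results of these data known. All regulators and paralogues are named, and of each other list up to 4 genes with the largest change from Day 30 to Day 113 that passed, did not overlap between those days and reached 5 CPM. Some genes that this rule names are not reported here.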

Additional observations from a re-analysis of the deposited data

Results flagged for a closer look

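In 104 groups of 4 wells, 1 well stood apart from the other 3 in 7, where its gap to the nearest other well exceeded Dixon's critical share of the range; chance gives about 1 in 20. Day 60, with 3 wells, was not checked. Day 113 replicate 2 was apart for 3 genes: MBNL1 at 120 CPM (others 144 to 147), QKI at 407 (499 to 514) and SNRPD1 at 45.0 (28.5 to 31.1). SRSF2 was at 117 CPM in Day 113 replicate 3 (135 to 137). On Day 30, replicate 1 was apart for TRA2B at 52.8 CPM (57.0 to 57.3) and for PCBP2 at 591 (536 to 541), and replicate 3 for RBFOX3 at 0.658 CPM (0.0382 to 0.0687).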

How the results depend on the processing

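From Day 30 to Day 113, 4 to 6 regulators were called under every alternative tried, and MBNL1, MBNL2, RBFOX2 and QKI were among the calls each time. From Day 30 to Day 60 the count of 0 became 1 with upper-quartile factors, 1 with DESeq2, 2 when only the libraries of the 2 days were fitted and 0 to 2 with a well left out. From Day 60 to Day 113 the count of 4 became 2 with only those libraries and 1 to 4 with a well left out. MBNL1 was not called there with upper-quartile factors (adjusted p = 0.055). With a well left out, chosen after seeing the data, list counts from Day 60 to Day 113 were 1 to 4 for paralogues, 1 to 2 for kinases and import, 4 to 9 for core spliceosome, 2 to 4 for other tissue regulators, 2 to 6 for RBM20-spliced transcripts and 2 to 6 for transcripts spliced by the other regulators; paralogues from Day 30 to Day 113 gave 2 to 5.

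Directions turned only for values that were never called. With a well left out, RBM20 ranged from -0.069 to 0.21 (Day 30 to Day 60), -0.15 to 0.11 (Day 60 to Day 113) and -0.046 to 0.15 (Day 30 to Day 113), RBM24 from -0.016 to 0.17 (Day 30 to Day 60), PTBP2 from -0.0032 to 0.094 (Day 30 to Day 113), and from Day 60 to Day 113 the log2 ratio of RBFOX1 to RBFOX2 from -0.085 to 0.71 and that of CELF1 to CELF2 from -0.024 to 0.18. RBFOX1 ranged from -0.12 to 0.55, -0.35 to 0.28 and -0.28 to 0.58 in the same order of intervals, and from Day 60 to Day 113 was -0.036 with upper-quartile factors and -0.11 with limma-voom. The cause was not tested.

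The labels number the wells within each day without linking them. Deviations of same-numbered wells from their day's mean correlated at 0.0348 to 0.139, over 0.1 in 2 of 10 pairs. Wells with different numbers were not compared, so these values cannot decide whether the numbers pair the wells. With the replicate number as a block, 2, 4 and 6 regulators were called in the 3 comparisons, and RBFOX1 gave -0.23 (Day 30 to Day 60) and -0.029 (Day 30 to Day 113). RBFOX1 had the fewest counts of the regulators, 10 to 40 per library.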
